A study of Mus musculus with 12 samples.

Results

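The 9 genes Gzmb, Hk3, Cfp, Stab1, Elk3, Rab44, Ctrl, Tuba8 and Rras were chosen by a measured value, the difference between the response to IACS-010759 in OHT-primed cells and that in nonprimed cells (the interaction), which was higher in primed cells for each of them. They are 9 of the 21671 genes in the table and 9 of the 9745 that passed the filter on low values (RPKM, reads scaled to gene length and library total, of at least 1 in at least 3 libraries). They are also 9 of the 14 genes called in the interaction at a limma adjusted p under 0.05 (Benjamini-Hochberg), against 0.144 percent of the genes tested, a share that the choice of the genes fixes.

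The study asked how MYC activity changes the response of B-cell progenitors to inhibition of mitochondrial complex I. FL5.12 is a mouse prolymphocytic line of BALB/c origin that needs interleukin 3, and the cells used here were a pool made by retroviral transduction and antibiotic selection. All 4 groups carried MycER, a MYC fusion protein that is expressed constitutively and is active only with 4-hydroxytamoxifen (OHT), so no group shows what OHT does in cells without MycER. Total RNA was depleted of ribosomal RNA and sequenced in 3 libraries per group, 12 in all.

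The untreated group received neither agent. The OHT group had 100 nM OHT for 72 h, of which the first 48 h were priming. The IACS group had 135 nM IACS-010759, a complex I inhibitor, for 24 h without OHT. The OHT_IACS group was primed for 48 h with 100 nM OHT and then had 135 nM IACS-010759 for 24 h with OHT kept in the medium. Library totals worked out from the RPKM steps ran from 10376530 to 14550158 reads, and 4199266 to 5762340 of these fell on genes. OHT replicates 1 and 3 were the shallowest libraries, with 0.776 and 0.805 of the total of untreated replicate 1, and OHT replicate 2 had 1.043 of it. Reads of IACS replicates 1 and 2 differed by no more than the sampling noise (chi-square per degree of freedom 1.02 over 10541 genes), while replicate 3 differed from both (2.08 and 2.71). These 2 libraries were counted as 1 sample, so means ± SD of the IACS group have n = 2 and those of the other groups n = 3. The fit kept all 12 libraries, and its counts with the pair averaged are given beside the results they change. By chi-square per degree of freedom, OHT replicate 2 differed from replicates 1 and 3 of its group by 4.84 and 2.61, and 4.84 was the highest value within any group. Without OHT replicate 2 the interaction called 130 genes in place of 14. Sources used here call the replicates biological without naming separate cultures, so p-values measure the spread between these libraries.

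Cytotoxic lymphocytes, mast cells and neutrophils store proteases in secretory granules, which fuse with the cell membrane when the cell is stimulated. Rab proteins direct such vesicles, and serine proteases such as granzyme B are packed in them in an inactive or shielded state. Properdin, stabilin-1 and hexokinase 3 are best known from myeloid cells, where they serve complement activation, uptake of altered proteins and the first step of glucose use.

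The name granule and myeloid genes covers part of the group. Gzmb and Rab44 belong to granules, and Hk3, Cfp and Stab1 are known from myeloid cells. Ctrl encodes a digestive protease of the pancreas, Elk3 a transcription factor, Tuba8 an alpha tubulin and Rras a small GTPase, and none of these 4 is a granule or myeloid gene by function. Among 16 markers of B-cell progenitors, 7 were at 0 in all libraries, among them the defining genes Pax5, Rag1 and Il7r, and the most abundant was the pan-leukocyte gene Ptprc with a mean of 17 RPKM. Cd79b and Cd79a, parts of the B-cell receptor, reached at most 3.64 and 1.59 RPKM. Most defining markers of the labelled B-lymphoid identity were thus absent or low. Of 15 neutrophil markers listed, 14 were measured, 8 were tested and 6, among them Elane, Camp and Ltf, did not exceed 0.344 RPKM. Cebpe had the highest mean over the 12 libraries, 22.1 RPKM, while S100a9 was above it in the untreated and IACS groups, with means of 26.9 and 29.7 RPKM. The mast cell and basophil factor Gata2 had a mean of 32.2 RPKM. Of 14 markers of NK and cytotoxic T cells 8 were at 0, including Gzma, Prf1, Ncr1 and Cd3e, and of 11 markers of pancreatic acinar cells 6 were at 0, including Ctrb1, Prss2 and Ptf1a. Other markers of these lists were present at low levels, with Nkg7 and Cd3g reaching 3.01 and 2.32 RPKM in the NK and T cell list and Cela1 1.08 RPKM in the acinar list. In bulk RNA a change in the share of cells of a kind and a change in RNA per cell cannot be told apart.

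RefSeq promoter windows (GRCm38.p6, 250 bases before to 50 after the start) were found for 8 of the 9 genes, with none matched for Rab44. Windows were picked for printing because they hold a searched motif, so they say nothing on how common motifs are among the 9 genes. Windows of Elk3 and Ctrl, which hold none, and those of Rras are not printed. The sequences of 5 genes are shown, with the motifs in capitals. They lie at chr14:56262285-56262584 on the minus strand (Gzmb), chr13:55021336-55021635 on the minus strand (Hk3), chrX:20931506-20931805 on the minus strand (Cfp), chr14:31168592-31168891 on the minus strand (Stab1) and chr6:121210484-121210783 on the plus strand (Tuba8), each written 5′ to 3′ along the gene's strand.
Gzmb: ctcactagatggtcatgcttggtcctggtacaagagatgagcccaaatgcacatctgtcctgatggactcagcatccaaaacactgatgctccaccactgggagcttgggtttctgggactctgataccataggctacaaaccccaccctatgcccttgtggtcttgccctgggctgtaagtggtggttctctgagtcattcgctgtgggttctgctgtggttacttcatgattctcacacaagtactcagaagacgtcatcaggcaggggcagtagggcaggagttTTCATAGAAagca
Hk3: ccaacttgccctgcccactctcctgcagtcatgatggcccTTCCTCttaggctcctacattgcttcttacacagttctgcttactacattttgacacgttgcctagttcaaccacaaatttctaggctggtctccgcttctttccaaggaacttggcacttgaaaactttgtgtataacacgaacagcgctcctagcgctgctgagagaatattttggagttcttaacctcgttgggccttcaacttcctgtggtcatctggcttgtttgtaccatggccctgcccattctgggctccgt
Cfp: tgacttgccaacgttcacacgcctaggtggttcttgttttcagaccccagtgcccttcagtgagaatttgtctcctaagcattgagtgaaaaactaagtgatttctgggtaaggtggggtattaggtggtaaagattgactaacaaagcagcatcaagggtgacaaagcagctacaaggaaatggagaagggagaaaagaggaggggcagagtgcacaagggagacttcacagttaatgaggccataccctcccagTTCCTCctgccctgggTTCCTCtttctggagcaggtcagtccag
Stab1: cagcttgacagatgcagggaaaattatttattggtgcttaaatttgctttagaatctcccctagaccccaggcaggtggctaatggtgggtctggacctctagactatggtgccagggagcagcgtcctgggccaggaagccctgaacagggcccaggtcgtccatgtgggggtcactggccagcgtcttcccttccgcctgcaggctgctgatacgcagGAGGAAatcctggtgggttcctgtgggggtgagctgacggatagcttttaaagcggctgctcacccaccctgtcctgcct
Tuba8: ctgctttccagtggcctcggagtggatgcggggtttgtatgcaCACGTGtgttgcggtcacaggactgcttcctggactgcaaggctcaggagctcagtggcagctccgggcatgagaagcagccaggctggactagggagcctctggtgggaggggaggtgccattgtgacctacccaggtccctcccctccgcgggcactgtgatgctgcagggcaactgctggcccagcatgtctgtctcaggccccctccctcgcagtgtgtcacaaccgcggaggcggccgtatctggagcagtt

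Motifs were searched on both strands as the E-box CACGTG, the PU.1-type core GAGGAA, the STAT-type TTCNNNGAA and the amino acid response core TGATGNAA. The Gzmb window holds 1 STAT-type match, and 8.3 percent of all 32851 promoter windows hold at least 1. Hk3 and Stab1 hold 1 PU.1-type core each and Cfp holds 2, against 28.3 percent of all windows with at least 1. Tuba8 holds 1 E-box, the sequence that MYC and its partner MAX bind, and 7.2 percent of all windows hold one. Windows of Elk3 and Ctrl hold none of the 4 motifs, and no window of the 8 genes holds the amino acid response core, which 4.0 percent of all windows hold. Of 3 windows listed for Rras, 2 overlap and share 1 PU.1-type core, and 1 of these also holds a STAT-type match. The Gzmb window and its match lie before the start of the gene as GENCODE gives it, since the annotations place that start differently. A match describes letters in these windows and no binding was measured.

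Gzmb (chr14:56258838-56262260 in GRCm38, minus strand) encodes granzyme B, a serine protease of cytotoxic granules. Its level was 22.4, 21.8 and 21.1 RPKM in the untreated libraries and 15, 16.9 and 15.8 RPKM with OHT. It was 33.9, 32.2 and 31.9 RPKM with IACS-010759 and 44, 50.7 and 50.9 RPKM with both agents. The 4 groups did not overlap and ran in the order OHT, untreated, IACS, OHT_IACS. The log2 difference with IACS-010759 was 0.55 ± 0.06 (SE) in nonprimed cells and 1.60 ± 0.06 in primed cells, the latter a 3.04-fold difference. Of the other granzymes on the list, Gzma, Gzmd, Gzme, Gzmg, Gzmk and Gzmn were at 0 in all libraries, and Gzmc and Gzmf did not exceed 0.272 and 0.162 RPKM. Gzmm passed the filter, with means of 0.917 RPKM untreated, 0.997 with OHT, 1.03 with IACS-010759 and 1.24 with both.

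Rab44 (chr17:29114145-29148980, plus strand) encodes a large Rab GTPase of granule-bearing cells. Untreated libraries held 26.8, 25.6 and 27.6 RPKM and OHT libraries 15.4, 17 and 15.1 RPKM. With IACS-010759 the level was 31.3, 32.4 and 30.6 RPKM, and with both agents 24, 25.7 and 23.5 RPKM. OHT_IACS overlapped the untreated group and all other pairs of groups were apart. The log2 difference with IACS-010759 was 0.21 ± 0.05 in nonprimed and 0.62 ± 0.05 in primed cells, the least unequal pair of responses among the 9 genes.

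Cfp (chrX:20925454-20931555, minus strand) encodes properdin, which stabilizes the alternative complement convertase. Its level was 6.62, 6.54 and 6.02 RPKM untreated and 4.24, 4.89 and 4.26 RPKM with OHT. It was 6.72, 6.07 and 5.36 RPKM with IACS-010759 and 7.6, 8.28 and 8.85 RPKM with both. The IACS and untreated groups overlapped, OHT was below both and OHT_IACS above both. The response was -0.11 ± 0.08 on the log2 scale in nonprimed cells and 0.87 ± 0.08 in primed cells.

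Stab1 (chr14:31139013-31168641, minus strand) encodes stabilin-1, a scavenger receptor. It stood at 1.55, 1.49 and 1.48 RPKM untreated and at 1.41, 1.42 and 1.32 RPKM with IACS-010759. OHT libraries held 3.23, 3.32 and 3.08 RPKM and OHT_IACS libraries 5.17, 5.22 and 5.06 RPKM. Unlike Gzmb, Rab44 and Cfp, Stab1 was higher with OHT alone than in untreated cells. Like Gzmb and Cfp it was highest with both agents, and no groups overlapped. The log2 response to IACS-010759 was -0.14 ± 0.08 in nonprimed and 0.67 ± 0.08 in primed cells.

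Hk3 (chr13:55005985-55021385, minus strand) encodes hexokinase 3, which phosphorylates glucose. Untreated libraries had 14.6, 15.1 and 16.1 RPKM, and OHT libraries 3.53, 3.8 and 3.49 RPKM. IACS libraries had 18.5, 18.3 and 15.4 RPKM, overlapping the untreated group, and OHT_IACS libraries 7.4, 9.54 and 8.32 RPKM. The level with both agents was therefore above OHT alone and below the untreated group in every library. The log2 response to IACS-010759 was 0.15 ± 0.08 in nonprimed and 1.20 ± 0.08 in primed cells.

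Ctrl (chr8:105932003-105933862, minus strand), the chymotrypsin-like protease, and Tuba8 (chr6:121210696-121226854, plus strand), an alpha tubulin, were lowest with OHT, next with both agents, and higher in the untreated and IACS groups, which overlapped. Ctrl was read by few counts, with 32, 40 and 39 reads untreated, 8, 11 and 7 with OHT, 32, 39 and 28 with IACS-010759 and 18, 17 and 16 with both. Its level was 2.96 ± 0.226 RPKM (SD, n = 3) untreated, 0.829 ± 0.0848 (n = 3) with OHT, 2.9 ± 0.103 (n = 2) with IACS-010759 and 1.62 ± 0.0869 (n = 3) with both. Tuba8 had 43.9, 42.1 and 42.1 RPKM untreated and 21.9, 20.7 and 21.7 RPKM with OHT. It had 47.6, 44.5 and 41.3 RPKM with IACS-010759 and 30.9, 34.3 and 32.1 RPKM with both. Both genes were lowest with OHT alone and intermediate with both agents, without overlap between these groups. The log2 response was -0.04 ± 0.11 in nonprimed and 0.89 ± 0.11 in primed cells for Ctrl, and 0.03 ± 0.05 and 0.60 ± 0.05 for Tuba8.

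Elk3 (chr10:93247414-93311135, minus strand) encodes a ternary complex factor that acts with SRF. It had 4.57, 4.33 and 4.17 RPKM untreated and 2.57, 3.13 and 2.96 RPKM with OHT. It had 4.79, 5.04 and 4.77 RPKM with IACS-010759 and 5.25, 4.82 and 5.37 RPKM with both. OHT alone was the low group, and the IACS and OHT_IACS groups overlapped. The log2 response was 0.13 ± 0.08 in nonprimed and 0.82 ± 0.08 in primed cells. Exons of Cdk17 on the opposite strand share 316 bases with Elk3 in GRCm38, or 6.9 percent of its exons. Counting was done on mm9 and the strand setting is not given in the sources used here, so reads of the 2 genes in that stretch may not be separated. An unlisted antisense gene, Gm15856, likewise shares 368 exon bases with Tuba8.

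Rras (chr7:45017961-45021647, plus strand), a GTPase related to RAS, differed from the other 8. It had 10, 11 and 12 reads untreated, 16, 17 and 18 with OHT, 3, 2 and 1 with IACS-010759 and 18, 15 and 19 with both, or 0.826 ± 0.0542 (n = 3), 1.56 ± 0.247 (n = 3), 0.147 ± 0.0731 (n = 2) and 1.55 ± 0.185 RPKM (n = 3). The low group was IACS alone, and OHT and OHT_IACS overlapped. Its reads per library total, summed over libraries, were 0.202 times the untreated level with IACS-010759 alone (counting interval 0.0693 to 0.489) and 1.01 times the OHT level with both (0.672 to 1.51). These exact 95 percent intervals cover counting error only, rest on 6 reads in the IACS group, and describe the responses by which Rras was chosen. Rras passed the filter on low values through the 6 libraries with OHT and in no other library, so its difference with OHT was built into its being tested. Ctrl reached 1 RPKM in 9 libraries, none of them of the OHT group, and the other 7 genes did so in all 12.

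**Figure D1:**
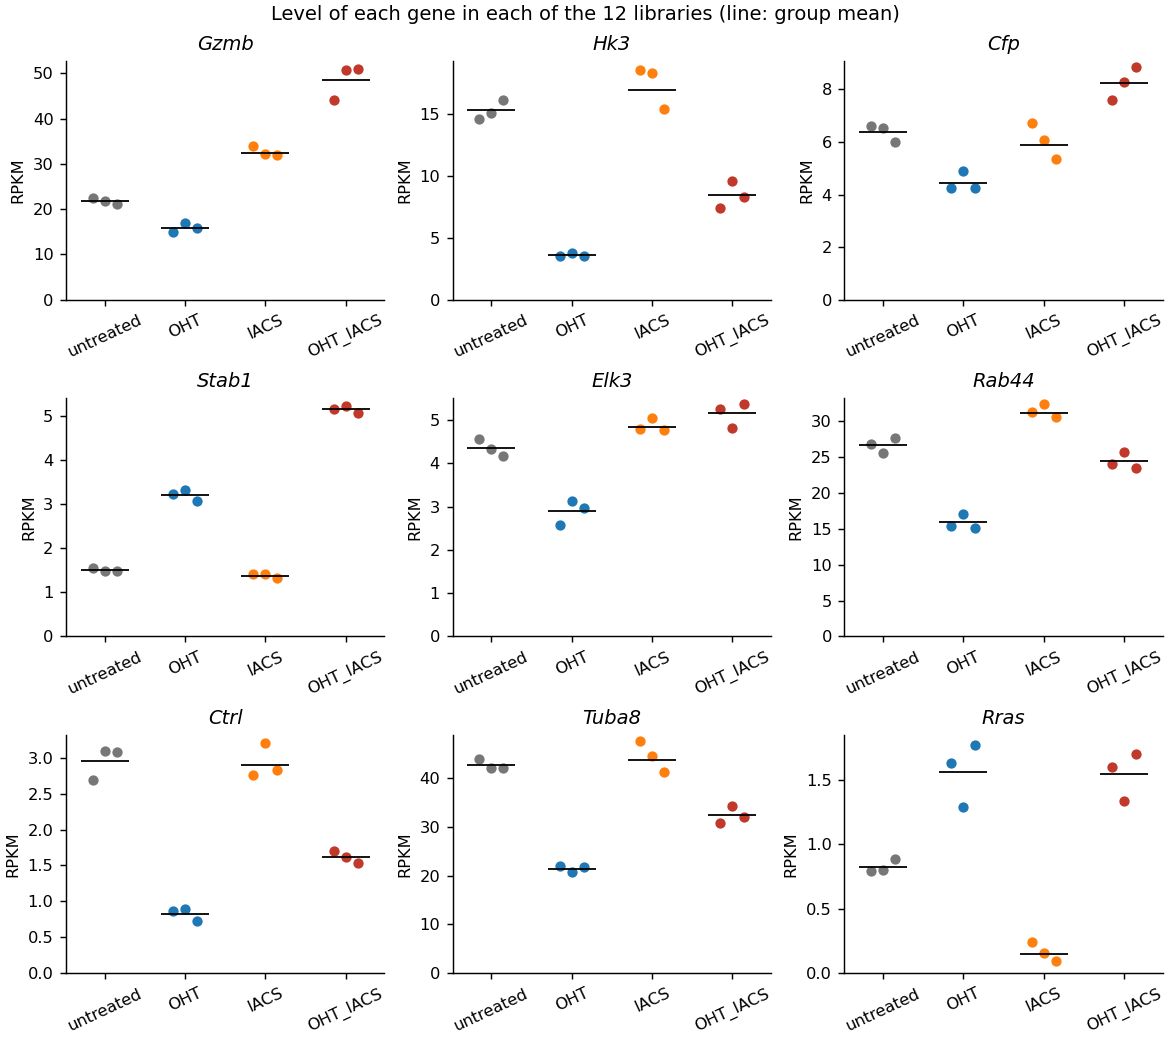
RPKM of each of the 9 genes (vertical axes, from 0) in each of the 12 libraries by group, with points for libraries and a line for the group mean, in which IACS replicates 1 and 2 count as 1 sample. Gzmb ran from 15 to 50.9 RPKM, and 7 genes were lowest with OHT alone while Stab1 and Rras were lowest with IACS-010759 alone.

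**Figure D2:**
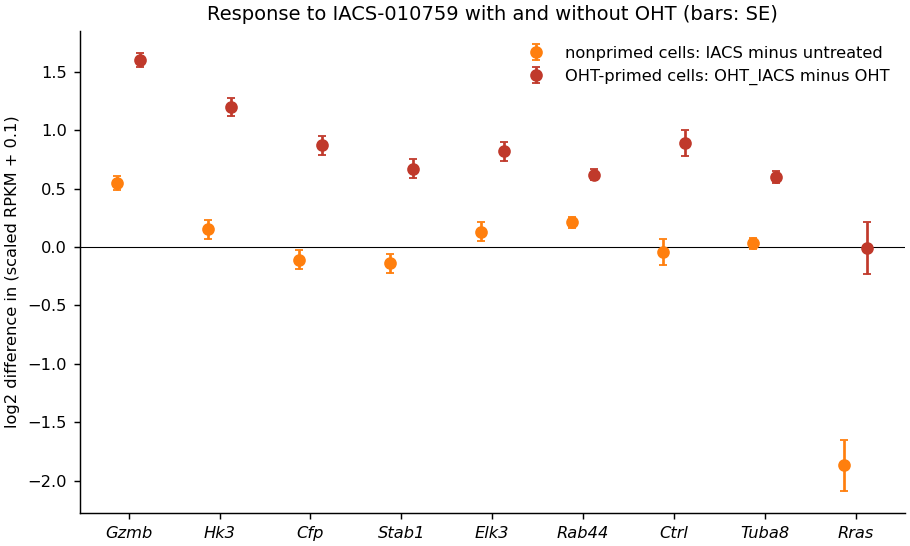
Log2 difference with IACS-010759 in nonprimed (orange) and OHT-primed (red) cells for each gene, with SE bars from the limma fit of 12 libraries. These differences chose the genes, so the gap between the colours is a description: for Gzmb 0.55 and 1.60, for Rras -1.87 and -0.01.

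The difference between the 2 responses ran from 0.41 ± 0.07 (Rab44) to 1.86 ± 0.31 (Rras) on the log2 scale, with 1.05 ± 0.08 for Gzmb and a median of 0.93 over the 9 genes. The median over all genes tested was -0.01. Genes inside the threshold that were not members were Mycn (0.50), 4930404N11Rik (0.69), Il3ra (0.68), Cat (0.36) and Ptprv (0.62),. Mycn is a MYC paralog, Il3ra the alpha chain of the interleukin 3 receptor and Cat catalase. Just outside were Ell2 (-0.46), Fes (0.52), Flywch1 (0.51), Gata2 (0.37) and Napsa (0.63). All values of this paragraph belong to the contrast that chose the genes. That of Rras ran from 0.66 with a pseudocount of 1 to 2.38 with 0.01, and that of Ctrl was 0.55 with a pseudocount of 1. The number called in it was 8 with IACS replicates 1 and 2 averaged, 6 of them among the 9 genes, and these counts also moved when 1 library was left out. It was 130 without OHT replicate 2, 11 without OHT_IACS replicate 2, and 3 to 8 without any 1 of the other 10 libraries, with 3 of the 9 genes called without untreated replicate 1, OHT replicate 3 or OHT_IACS replicate 3.

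Contrasts orthogonal to the interaction in this balanced design were tested: the mean effect of OHT, the mean effect of IACS-010759 and OHT_IACS against untreated. Orthogonality holds for 12 independent libraries of equal spread, and would be inexact if IACS replicates 1 and 2 were 1 library. The choice also favours genes with a small spread between replicates, which these tests share. Differences are in log2 of scaled RPKM + 0.1, which understates changes of low genes.

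Averaged over OHT states, 8 of the 9 genes were higher with IACS-010759 and 1, Rras, was lower. Of all genes tested 33.8 percent were called, 16.4 percent higher and 17.4 percent lower, and the median was 0.41 over the 9 genes and -0.01 over all. Gzmb rose most, by 1.08 ± 0.04 (limma adjusted p 1e-09, Benjamini-Hochberg), followed by Hk3 with 0.67 ± 0.06 (limma adjusted p 1.6e-06, Benjamini-Hochberg). Increases of Elk3, Ctrl, Rab44, Cfp, Tuba8 and Stab1 ran from 0.26 (Stab1) to 0.47 (Elk3). Rras fell by 0.94 (SE 0.15). In nonprimed cells Cfp, Stab1 and Ctrl were not higher, with -0.11, -0.14 and -0.04. Tuba8 had 0.03 ± 0.05 and Hk3 0.15 ± 0.08 there, and their IACS and untreated libraries overlapped. Gzmb, Rab44 and Elk3 had 0.55, 0.21 and 0.13. Rras had -1.87 in nonprimed and -0.01 in primed cells. The median of the 9 genes was 0.03 in nonprimed and 0.82 in primed cells, a gap that the choice of the genes fixes. The 9 calls in the mean effect also held with IACS replicates 1 and 2 averaged. The values of Rras and Ctrl depend on the pseudocount, and with 1 in place of 0.1 they were -0.33 and 0.24. The genes were chosen on the difference between the responses, so the count of 8 describes the group and is not evidence on genes outside it.

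Averaged over IACS states, 5 of the 9 genes were lower with OHT (Hk3, Ctrl, Tuba8, Rab44 and Elk3) and Stab1 was higher, against 23.2 and 22.1 percent of all genes tested and 45.3 percent in either direction. Rras, at 1.75, is left out of this count because it passed the filter only in libraries with OHT. The median was -0.41 over the other 8 genes and 0.01 over all genes tested. Hk3 fell by 1.55 (SE 0.06), Ctrl by 1.28 (SE 0.08) and Tuba8 by 0.73 (SE 0.04), and Stab1 rose by 1.43 ± 0.06. With a pseudocount of 1 in place of 0.1, Ctrl had -0.85 and Rras 0.80. Elk3 differed with OHT alone, at -0.60, and had 0.08 under IACS-010759, where its groups overlapped. Gzmb and Cfp did not pass the test, with 0.05 ± 0.04 and -0.04 ± 0.06. For Gzmb and Cfp, libraries with OHT alone were below untreated libraries and OHT_IACS libraries were above IACS libraries, and the mean of the 2 differences lies near 0.

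With both agents, 4 genes were above untreated cells (Stab1 1.69, Gzmb 1.13, Cfp 0.34 and Elk3 0.21) and 4 were below (Hk3 -0.88, Ctrl -0.85, Tuba8 -0.42 and Rab44 -0.15), against 18.5 and 20.9 percent of all genes and 39.4 percent in either direction. Rras, at 0.81 and at 0.47 with a pseudocount of 1, is again left out, since no untreated library reached the filter's 1 RPKM and all OHT_IACS libraries did. The median was 0.03 over the other 8 genes and 0.00 over all genes tested. Elk3 and Rab44 were near the threshold. Elk3 had a limma adjusted p of 0.043 (Benjamini-Hochberg), from 0.018 to 0.15 over the alternatives and 0.053 with IACS replicates 1 and 2 averaged. It kept the call in 12 of 23 alternatives and lost it with no filter (0.057), at a filter of 5 RPKM (0.054), with the replicate block (0.062), and without untreated replicate 2 or 3, OHT replicate 3, IACS replicate 1 or 2, or OHT_IACS replicate 1 or 3. Rab44 had a limma adjusted p of 0.03 (Benjamini-Hochberg), from 0.014 to 0.15, and kept the call in 17 of 23. It lost the call without untreated replicate 1 or 3 and without OHT_IACS replicate 1 or 3, with RPKM as deposited, and with the library total as covariate.

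**Figure D3:**
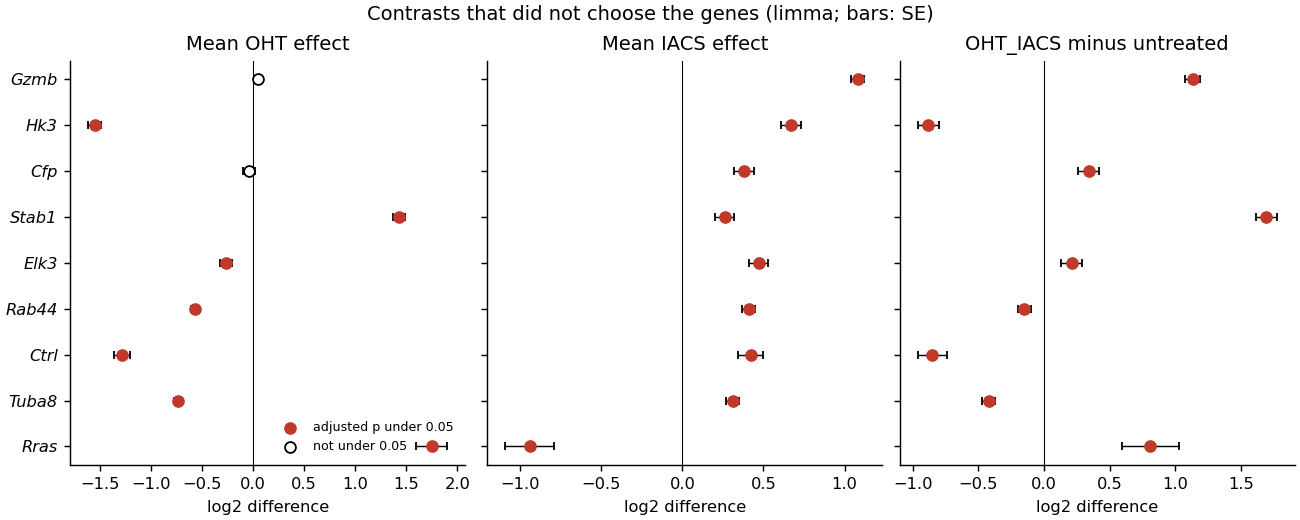
Log2 differences of the 9 genes in the mean OHT effect, the mean IACS effect and OHT_IACS against untreated, with SE bars; filled points passed a limma adjusted p of 0.05. For the mean IACS effect 8 genes lie above 0 and Rras at -0.94; for the mean OHT effect Gzmb and Cfp lie near 0.

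Across the 12 libraries, levels of Hk3, Rab44, Ctrl and Tuba8 ran together, with Pearson r of log2(RPKM + 0.1) from 0.94 (Rab44 and Ctrl) to 0.99 (Hk3 and Tuba8). Gzmb, Cfp and Elk3 had r of 0.87 to 0.88 with each other, but Elk3 also had 0.86 with Rab44, 0.77 with Tuba8 and 0.76 with Hk3. Stab1 and Rras had r of 0.78 with each other. These libraries share 4 conditions, so r describes the order of the groups. Outside the 9 genes, the levels most like Gzmb were those of Cat (r = 0.975), A130040M12Rik (0.956) and Itpr2 (0.946). Most like Hk3 were St3gal2 (0.991), Rcsd1 (0.988) and Abca7 (0.986), and most like Cfp were Il3ra (0.901), Man2a2 (0.875) and Crebzf (0.869).

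The genes of each pathway were taken from lists, 9 of which hold 1 of the 9 genes in their counts. The counts stand beside 16.4 percent of all tested genes called higher and 17.4 percent lower with IACS-010759, and 22.1 percent higher and 23.2 percent lower with OHT. Of 15 tested genes of granule proteases and their packaging, 8 were higher and 2 lower with IACS-010759 (mean effect), with a median of 0.14 beside -0.01 for all genes. Cpa3, the mast cell carboxypeptidase, rose by 1.10 ± 0.09, from 4.59 RPKM untreated and 4.73 RPKM with OHT to 8.11 RPKM with IACS-010759 and 13 RPKM with both. Ctsg, cathepsin G, rose by 0.47 ± 0.09 and Prss57 by 0.42 ± 0.09, while the neutrophil protease Prtn3 fell by 0.27 and the peroxidase Mpo fell by 0.18. With OHT, 3 of the 15 were higher and 5 lower. Serpinb9, among the higher, passed the filter through libraries with OHT, and Nkg7, among the lower, through libraries without it. The differences of these genes with OHT were thus built into their being tested.

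Of 18 tested genes of the granule secretion machinery, 11 were higher and 2 lower with IACS-010759, with a median of 0.24, and 2 were higher and 11 lower with OHT, with a median of -0.20. Rab37, a Rab of mast cell granules, was 4.76 RPKM untreated, 0.914 with OHT, 6.82 with IACS-010759 and 1.82 with both, and rose by 0.71 ± 0.08 in the mean IACS effect. Cracr2a rose by 0.52 ± 0.12. Rab27a and Vamp7, which serve granule docking and vesicle fusion, fell by 0.16 and 0.32. Gzmb and Rab44 were the genes of these 2 lists called in the interaction.

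The remaining lists hold the relatives of the other 7 genes. Of 5 hexokinases tested, Hk3 and Adpgk (0.12) were higher with IACS-010759, while Hk1 had 0.06 ± 0.05 and Hkdc1 -0.43 ± 0.16, neither past the test. Of 6 complement genes tested 1, Cfp, was higher, and C3ar1, Cr1l and Itgb2 had -0.13, 0.09 and -0.10. Of 4 scavenger receptors, Stab1 and Scarb2 (0.18) were higher and Scarb1 fell by 0.35. Of 5 alpha tubulins Tuba8 was called, and Tuba1a, Tuba1b and Tuba1c had -0.07, 0.02 and -0.04. Of 14 ternary complex factors and SRF targets, 2 were higher (Elk3 and Ier2, 0.24) and 3 lower, Vcl falling by 0.29, and Dusp1 had -0.23 and did not pass the test. Of 23 genes of the RAS family and its regulators 6 were higher and 6 lower, the exchange factors Sos1 and Sos2 rising by 0.63 and 0.35 and the RAS inhibitor Nf1 by 0.36. Of 20 digestive enzymes 2 were tested, and Ctrl was higher. Medians of these lists ran from -0.04 to 0.13.

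Of 16 myeloid and cytotoxic transcription factors tested, 7 were higher and 2 lower with IACS-010759, with a median of 0.22. Runx2 rose by 0.55 ± 0.12, Cebpg by 0.40 ± 0.03 and Nfil3 by 0.40 ± 0.05, and Id2 fell by 0.65 (SE 0.24). None of the 16 was called by limma in the interaction, in which 0.144 percent of all genes were, so nothing is read from this count. Gata2 had 0.37 ± 0.07 with a limma adjusted p of 0.06 (Benjamini-Hochberg).

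**Figure D4:**
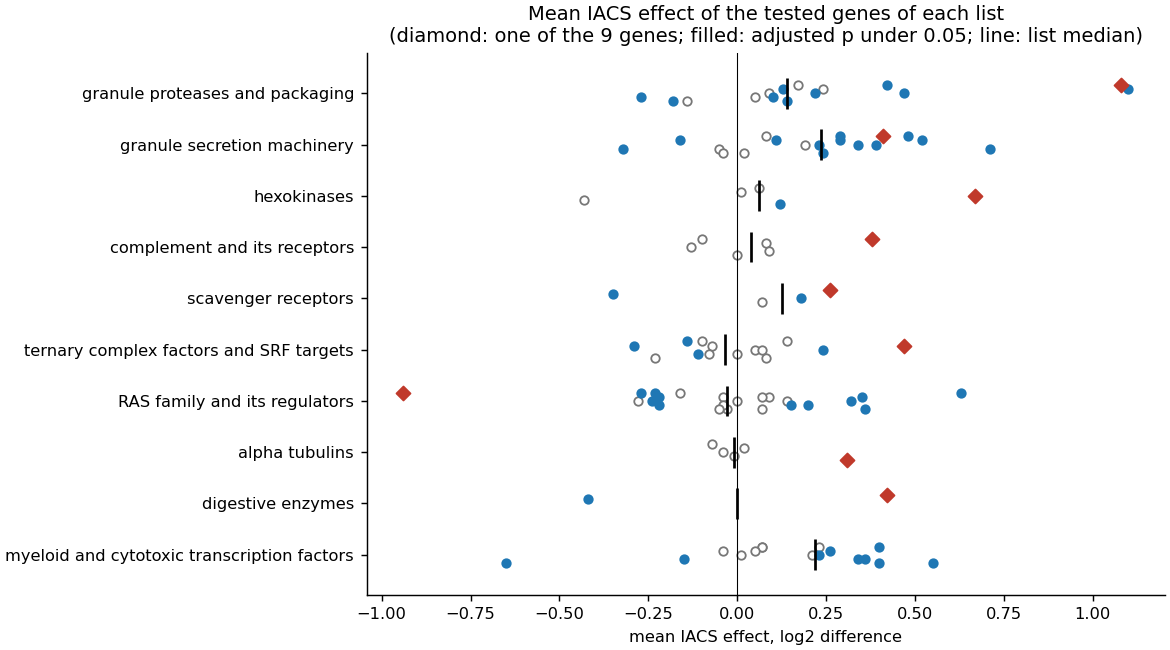
Mean IACS effect (log2 difference, horizontal axis) of every tested gene of 10 lists, with diamonds for the 9 genes, filled points for a limma adjusted p under 0.05 and a line at each list's median. The median is 0.24 for the secretion machinery and 0.14 for granule proteases, the diamonds of Hk3, Cfp, Stab1, Elk3, Tuba8 and Ctrl are the highest points of their lists and that of Rras, at -0.94, the lowest.

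Markers of other blood cells moved with the treatments. Of the 8 tested neutrophil markers, Ngp and Lcn2 reached 1 RPKM only in libraries without OHT, so their fall with OHT was built into being tested. The others were all lower with OHT, from -0.16 (Cebpe) to -2.72 (S100a8), beside 23.2 percent of all genes. With IACS-010759, 1 of the 8 was higher and 4 were lower, beside 16.4 and 17.4 percent, with a median of -0.17. Among the lower was Ngp (-0.65), with means of 1.43 RPKM untreated and 1.58 with IACS-010759. Its fall came from libraries with OHT, where the means were near the floor, at 0.191 RPKM with OHT and 0 with both. The 14 markers measured summed to 117 to 125 RPKM in untreated and 53.9 to 58.3 RPKM in OHT libraries. They summed to 107 to 129 RPKM with IACS-010759 and 50.2 to 54.6 RPKM with both. Libraries with OHT lay below those without it, as for Hk3, Ctrl and Tuba8. In the sum the OHT and OHT_IACS libraries overlapped. For these 3 genes they did not, but that gap is part of the response that chose them. Nothing is therefore read from this difference. Single markers differed in direction, Ctsg having means of 4.6 RPKM with OHT and 5.96 with both, and Prtn3 10.5 and 9.14. The 12 mast cell and basophil markers in the table summed to 39.3 to 40.3 RPKM untreated, 30.7 to 32.4 with OHT, 44.4 to 46.3 with IACS-010759 and 46.1 to 50.1 with both. Most of this sum was Gata2 and Cpa3, which differed in their order. Of the 3 tested markers these 2 were called higher with IACS-010759 (Gata2 0.23 and Cpa3 1.10), and Hdc (0.53) did not pass the test. Gata2 had means of 34.2 RPKM untreated, 25.3 with OHT, 36.1 with IACS-010759 and 33.7 with both, and was below the untreated mean with both agents, where Cpa3 was highest. Mcpt4, Kit, Prss34 and Tpsb2 were at 0. Monocyte and macrophage markers summed to 31.8 to 37.3 RPKM without and 37.8 to 44.3 RPKM with IACS-010759, with Emr1 the most abundant and Ly6c1 and Ly6c2 at 0. Of the 5 tested markers 1, Emr1 (0.36), was called higher with IACS-010759, beside 16.4 percent of all genes. Plasmacytoid dendritic cell markers summed to 12 to 19.9 RPKM over the 12 libraries, with Bst2 the most abundant and Ly6d at 0. NK and cytotoxic T cell markers summed to 3.91 to 4.9 RPKM untreated and 1.7 to 2.05 RPKM with OHT. They summed to 3.74 to 4.56 RPKM with IACS-010759 and 2.29 to 2.51 RPKM with both. This sum was lower with OHT than with both agents. Cd3g ran in that order, with means of 1.01 RPKM with OHT and 1.54 with both, while Nkg7 had 0.855 and 0.762. Of the tested markers of that list, Cd3g was lower with OHT (-0.63). Nkg7 was also called lower, but it passed the filter through libraries without OHT, so this call was built into its being tested. Pancreatic markers summed to at most 1.27 RPKM. The part of any of these cell programs in the levels of the 9 genes was not tested.

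**Figure D5:**
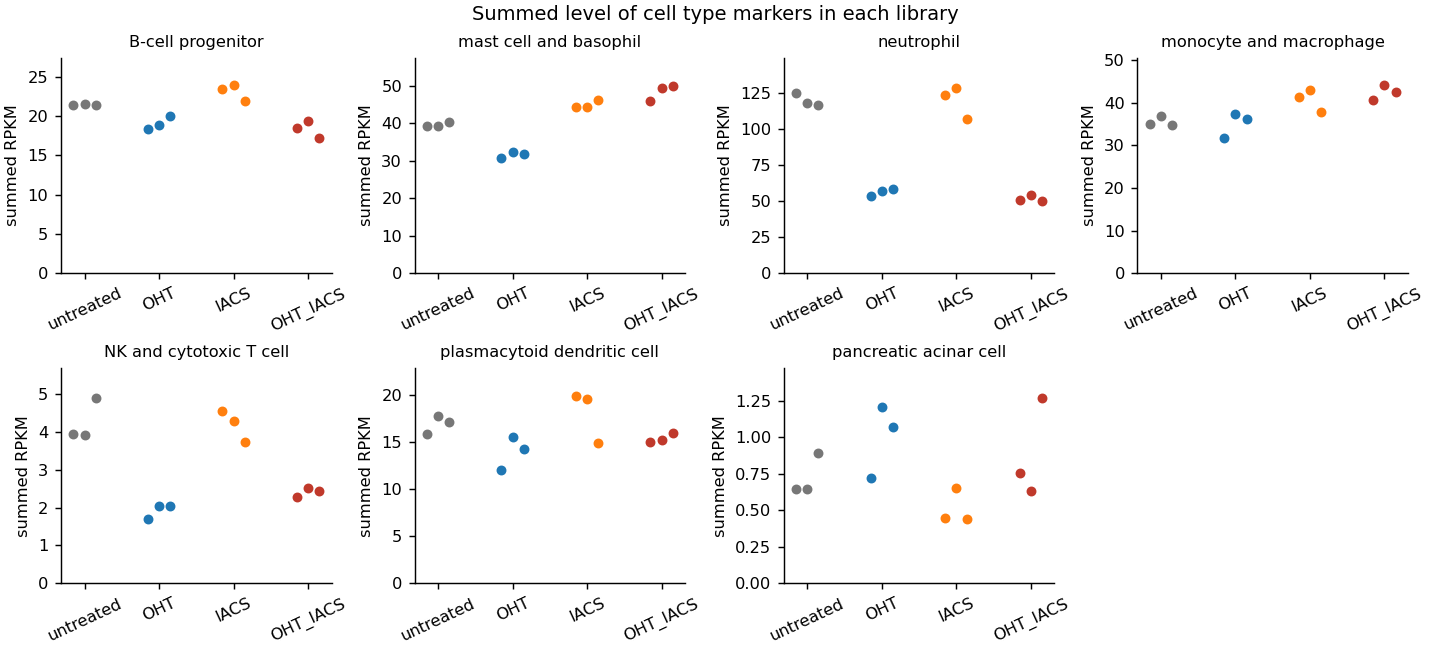
Summed RPKM of the markers of 7 cell types (vertical axes, from 0) in each of the 12 libraries by group. The neutrophil sum is 50.2 to 58.3 RPKM in the libraries with OHT and 107 to 129 RPKM in those without, and the mast cell and basophil sum, in which Gata2 and Cpa3 differ in order, is 46.1 to 50.1 RPKM with both agents.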

How the data were processed

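The authors deposited 1 table of RPKM per gene for 12 libraries, from a stranded total RNA kit. Submitters' processing notes name mm9, TopHat2 2.0.8 and featureCounts 1.4.5-p1; coordinates here are from GENCODE and RefSeq on GRCm38, a later build than the one counted on. The table also holds 6 columns of the authors' DESeq2 log2 fold change and adjusted p, which were not used. Steps between low RPKM gave the reads per gene as whole numbers and each library's depth. RPKM were rescaled by median ratios, filtered at 1 RPKM in 3 libraries and fitted as log2(RPKM + 0.1) with limma 3.58.1 in R 4.3.3 (mean-variance trend, two-sided, Benjamini-Hochberg over 9745 genes, threshold 0.05). Python 3.11.15, numpy 2.4.6, pandas 2.3.3, scipy 1.17.1 and matplotlib 3.10.9 served the rest. The scripts were tested on simulated data. Counting intervals are exact (Clopper-Pearson).

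Named genes are the 9 genes, those called in the interaction and the next 5, the 3 genes most correlated with each of Gzmb, Hk3 and Cfp, and up to 4 genes per list with the largest absolute mean IACS effect; others named from a list, and all markers named, were picked after their values were seen. Some genes that this rule takes are not reported here. The members and lists were chosen with earlier results of these data known. Alternatives covered the pseudocount, filter, scaling, replicate block, trend, reads in place of RPKM, library total and each library left out; averaging IACS replicates 1 and 2, and counts per list, were added after seeing the data.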

Additional observations from a re-analysis of the deposited data

Results flagged for a closer look

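The response to IACS-010759 differed between primed and nonprimed cells in 14 genes. For the 9 genes chosen on this difference it was, on the log2 scale, Gzmb (1.05), Hk3 (1.04), Cfp (0.98), Stab1 (0.81), Elk3 (0.69), Rab44 (0.41), Ctrl (0.93), Tuba8 (0.57) and Rras (1.86), which describes the choice. For the other 5 it was Mycn (0.50), 4930404N11Rik (0.69), Il3ra (0.68), Cat (0.36) and Ptprv (0.62), by the limma interaction term at an adjusted p under 0.05 (Benjamini-Hochberg). The number of genes called was 8 with IACS replicates 1 and 2 averaged, and 3 to 130 with 1 library left out.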

How the results depend on the processing

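Members called in the mean OHT and mean IACS effects kept their direction and call wherever the gene was tested (leaving aside Rras with OHT, which passed the filter only in libraries with OHT), under 11 alternatives and with each library left out. Gzmb and Cfp were not called in the mean OHT effect under any of these, and Cfp changed sign, from -0.07 to 0.03. Against untreated cells, calls of Elk3 and Rab44 were lost under some of them, again leaving aside Rras, whose call was lost with the library total as covariate. The interaction called 14 genes, and 7 with no filter, 5 with RPKM as deposited, 34 with quantile normalization, 36 with voom on recovered reads, 5 with the library total as covariate and 8 with IACS replicates 1 and 2 averaged. Of the 9 genes it called 5 with no filter, 5 with RPKM as deposited and 5 with the library total as covariate. Leaving out 1 library gave 3 to 130 genes and 3 to 9 of the 9; where a group then has 2 libraries the shared spread is assumed. The cause was not tested.

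With a replicate block the interaction called 7 genes and 5 of the 9, and Elk3 lost its call against untreated cells; it changed no other member's call in the 3 tested contrasts. Replicate numbers do not pair the libraries: correlations of same-numbered deviations from group means ran from -0.17 to 0.10 over 18 pairs, and 1 of 12 libraries correlated best with its own number. Low reads limit Rras and Ctrl, which were not tested at a filter of 5 RPKM.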
